A study of Mus musculus with 4 samples.

Results

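H3K27me3 differential peaks paired with 7 neurotransmitter receptor and synaptic genes were described in aorta macrophages. The genes were Gabbr2, Grik2, Glra1, Grin2d, Cnr1, Sv2c and Lsamp. They were chosen by name, and their members are all H3K27me3 peaks that the study's supplementary peak list pairs with them. Each peak was found by its name in the deposited list. This gave 9 of the 146 H3K27me3 peaks in that list, on 6 chromosomes, and 117 of the 146 were paired with a gene. The cells came from C57BL/6J mice. Mice in chronic intermittent hypoxia (CIH) breathed 6.1% and 21% O2 in alternating phases of 90 s for 12 daylight hours over 20 weeks, and the room air controls (RA) breathed 21% O2. Animal age is not given in the sources used here. CD11b+ cells were taken from digested aortas with magnetic beads, so any CD11b+ cell of the aorta could be included. Each mark was measured by ChIP-Seq, in which chromatin bound by an antibody is sequenced, with 1 library per mark and exposure, 4 in all, and no input library. With 1 library per group there is no replicate error, so no test was made and every comparison describes these 4 libraries only.

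H3K27me3 is trimethylation of lysine on histone H3 placed by Polycomb repressive complexes, and it marks genes held silent, including many neuronal genes in cells outside the nervous system. H3K9ac is acetylation of the same histone near active promoters and enhancers. The genes chosen encode receptors for the main transmitters of the brain, a synaptic vesicle protein and a neuronal adhesion protein. Macrophages are not known for synapses, although some transmitter receptors, the cannabinoid receptors among them, are also studied in immune cells. The deposited lists give each peak a position, a name and a sign for the exposure with more signal, and no peak height or depth. All positions are in mm9, counted from 1. Genes were named for only 117 of the 146 H3K27me3 peaks and 483 of the 20943 H3K9ac peaks. A gene not named may therefore still have a differential peak. Its absence also says nothing of whether it carries the mark in both exposures.

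The sequences of 5 of the peaks are shown because the results turn on them. The Sv2c pair and the Grin2d CIH peak come from neighbouring peaks that differed in opposite directions, Gabbr2 had the widest peak, and Grik2 lay farthest from H3K9ac. They are the letters of the study's supplementary list, 5′ to 3′ on the plus strand, with every CpG in capitals. Grin2d (CIH) is chr7:53126401-53126650. Sv2c (CIH) is chr13:96975101-96975400 and Sv2c (RA) is chr13:96975401-96975700. Gabbr2 (RA) is the first 300 bases of its peak, chr4:46883151-46883450, and Grik2 (RA) the first 300 of its own, chr10:47224951-47225250. The exposure in brackets is the one in which the peak was higher.
Grin2d (CIH): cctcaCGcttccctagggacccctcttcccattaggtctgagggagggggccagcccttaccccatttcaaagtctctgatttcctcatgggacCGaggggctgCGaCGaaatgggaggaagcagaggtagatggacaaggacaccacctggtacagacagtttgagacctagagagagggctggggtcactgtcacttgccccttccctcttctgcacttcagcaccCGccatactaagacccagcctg
Sv2c (CIH): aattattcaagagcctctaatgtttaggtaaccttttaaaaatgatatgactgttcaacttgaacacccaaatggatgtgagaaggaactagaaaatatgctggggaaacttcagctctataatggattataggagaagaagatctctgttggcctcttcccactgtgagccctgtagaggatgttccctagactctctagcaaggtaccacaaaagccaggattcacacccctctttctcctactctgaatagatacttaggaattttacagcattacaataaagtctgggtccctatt
Sv2c (RA): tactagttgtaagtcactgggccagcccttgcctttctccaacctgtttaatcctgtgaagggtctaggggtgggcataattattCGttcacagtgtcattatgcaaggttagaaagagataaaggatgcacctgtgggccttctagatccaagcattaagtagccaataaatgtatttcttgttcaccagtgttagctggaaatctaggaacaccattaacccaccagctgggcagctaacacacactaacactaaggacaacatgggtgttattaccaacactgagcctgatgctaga
Gabbr2 (RA): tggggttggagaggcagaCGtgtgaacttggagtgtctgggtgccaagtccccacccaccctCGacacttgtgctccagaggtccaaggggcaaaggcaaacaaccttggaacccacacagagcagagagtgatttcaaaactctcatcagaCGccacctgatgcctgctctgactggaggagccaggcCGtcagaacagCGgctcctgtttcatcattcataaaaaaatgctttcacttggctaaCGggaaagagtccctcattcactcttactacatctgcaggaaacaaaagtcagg
Grik2 (RA): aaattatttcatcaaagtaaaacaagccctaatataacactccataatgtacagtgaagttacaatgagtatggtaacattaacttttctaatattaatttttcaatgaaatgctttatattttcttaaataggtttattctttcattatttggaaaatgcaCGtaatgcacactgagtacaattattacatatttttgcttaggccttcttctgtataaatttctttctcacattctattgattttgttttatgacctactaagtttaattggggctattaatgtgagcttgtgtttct
The sequences of Grin2d and Gabbr2 hold several CpG and those of Grik2 and the Sv2c pair 1 or none, a contrast measured further on over all peaks whose sequence was given.

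Of the 9 peaks, 6 were higher in RA and 3 in CIH, or 66.7% and 33.3%. Over the whole H3K27me3 list, 63.7% of the peaks were higher in RA and 36.3% in CIH, so the directions of the receptor and synaptic genes were close to those of the list. The study itself counts more H3K27me3 peaks in CIH than in RA, so these shares are those of the deposited list only. By gene, Gabbr2, Grik2, Glra1 and Cnr1 had a peak higher in RA only, Lsamp had one higher in CIH only, and Grin2d and Sv2c each had 1 peak in each direction. A sign alone thus gave no single direction for these last genes. For 5 of the 9 peaks the supplementary list names a second gene beside the receptor. Hace1, a ubiquitin ligase, shared the Grik2 peak. Nmur2, a neuromedin U receptor, shared the Glra1 peak. Kdelr1, a receptor that returns proteins to the endoplasmic reticulum, shared both Grin2d peaks, and Rngtt, the mRNA capping enzyme, shared the Cnr1 peak. Each of these is the neighbouring protein-coding gene in RefSeq order (GRCm38.p6), so the pairing gives nearness to both genes and not which of them the peak belongs to. The peaks of Gabbr2, Sv2c and Lsamp were paired with no second gene. Without the shared peaks, 4 peaks stayed, 2 higher in RA and 2 in CIH. Where the peaks lie relative to exons, introns and UTRs was not determined, since no mm9 annotation was used here.

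The inhibitory receptors both had peaks higher in RA. Gabbr2 codes for one part of the GABA-B receptor, which acts through G proteins. Its peak, chr4:46883151-46883750, was 600 bp wide and no other peak of the H3K27me3 list reached that width. Glra1 encodes a subunit of the glycine receptor, a chloride channel. Its peak, chr11:55426551-55427050, was 500 bp wide, and 2 peaks of the list were wider. Cnr1 encodes the main cannabinoid receptor of the brain, and its peak, chr4:33818751-33819150, was 400 bp wide and also higher in RA. It lay 13.06 Mb from the Gabbr2 peak on the same chromosome, and for both this was the nearest other H3K27me3 peak.

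The glutamate receptor genes differed from each other. Grik2 encodes a subunit of the kainate receptor, and its single peak, chr10:47224951-47225350, was 400 bp wide and higher in RA. Grin2d encodes a subunit of the NMDA receptor and had a peak in each direction, both 250 bp wide, with the RA peak at lower coordinates and 50 bp between them. Sv2c, a glycoprotein of synaptic vesicles, had 2 peaks of 300 bp that touched, with the CIH peak at lower coordinates. Lsamp, an IgLON adhesion protein of neurons, had 1 peak of 250 bp higher in CIH, chr16:41657551-41657800.

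The median width of the 9 peaks was 300 bp, from 250 to 600, and that of the list was also 300 bp, from 50 to 600. The 6 peaks higher in RA had a median of 400 bp and the 3 higher in CIH one of 250 bp. In the whole list the peaks higher in RA were likewise the wider, with medians of 350 and 300 bp. All edges of the deposited peaks fell on a grid of 50 bp, so a width is known only in those steps.

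Pairs of neighbouring peaks with opposite directions held 4 of the 9 peaks, or 44.4%. In the list, 16 of 146 peaks, or 11.0%, lay within 100 bp of a peak of the other direction, so 4 of those 16 belong to Grin2d and Sv2c. Every peak of a chosen gene was taken, so both peaks of a pair entered together. The 4 peaks are thus 2 loci, and the 44.4% counts peaks and not genes. Touching pairs with the same direction numbered 0 of 7 in this list, so opposite signs in touching peaks are not particular to these genes. The Grin2d pair is the one pair of opposite direction in which the peaks did not touch. Of the 7 touching pairs of the list, 6 had the CIH peak at lower coordinates, the Sv2c pair among them, and 1 the RA peak. The members of every such pair carried consecutive peak numbers, and peak numbers rose in chromosome order throughout both lists. With touching peaks only, 2 of the 9 peaks stayed in such a pair. Thus these genes supplied 2 of the 8 pairs in which the sign changed between close neighbours. The size of the difference on either side was not analysed here, as the counts in the supplementary list were not used.

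**Figure D1:**
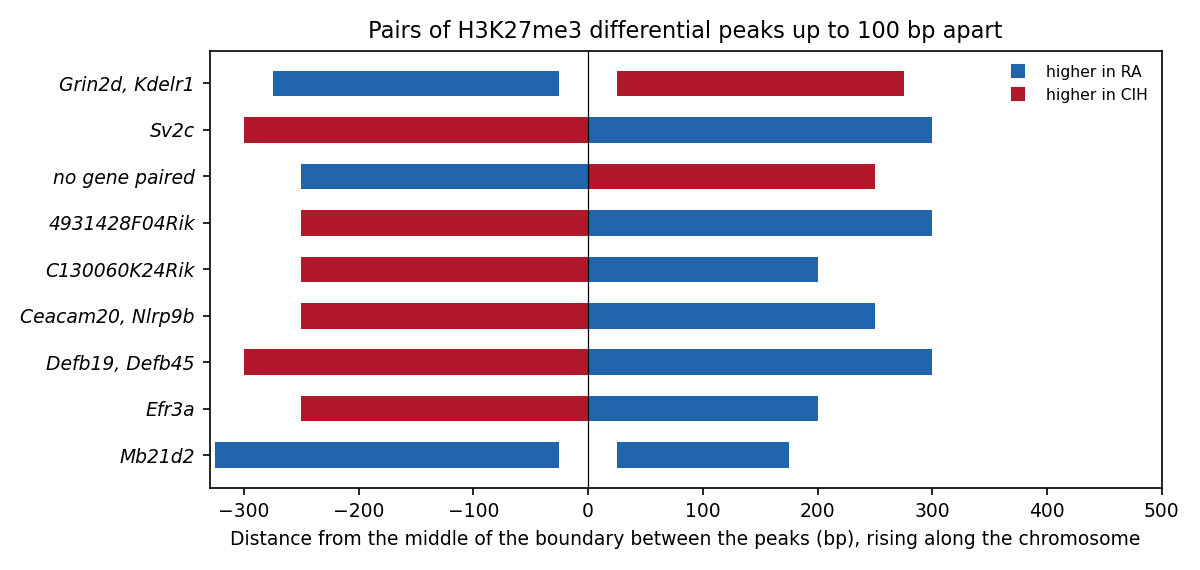
The 9 pairs of H3K27me3 differential peaks no more than 100 bp apart, 1 per row with the genes paired with them, drawn to scale as bars from start to end in bp around the middle of the boundary, blue higher in RA and red higher in CIH. The Grin2d pair has the RA peak at lower coordinates and a gap of 50 bp, the Sv2c pair touches with the CIH peak at lower coordinates, and the Mb21d2 pair is higher in RA on both sides.

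None of the 9 peaks shared a base with an H3K9ac differential peak, of which the list holds 20943. Over the H3K27me3 list 33 of 146 peaks did, or 22.6%, and the sharing was uneven between directions, with 4 of 93 peaks higher in RA and 29 of 53 higher in CIH, or 54.7%. Of the 9 peaks, 0 of the 6 higher in RA and 0 of the 3 higher in CIH did. The Grin2d, Sv2c and Lsamp peaks higher in CIH were therefore among the 24 of 53 such peaks clear of H3K9ac differences.

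Within 50 kb, measured from edge to edge, 5 of the 9 peaks had an H3K9ac peak, or 55.6%, against 57.5% of the H3K27me3 list, which is a similar share. They were the peaks of Grin2d, Cnr1 and Sv2c, or 3 of the 7 genes. Grin2d and Sv2c count with 2 peaks each, which had the same H3K9ac peaks nearby, so the similar share holds for peaks and not for genes. Together these genes had 10 different H3K9ac peaks nearby, 5 higher in RA and 5 in CIH, while 54.6% of the H3K9ac list was higher in RA. The farthest one inside 50 kb lay 49.2 kb from the Grin2d CIH peak and the next outside lay 51.8 kb from it. None of the 10 was in the part of the supplementary H3K9ac list used here, which names genes for 483 peaks, so no gene is given for them.

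Grin2d had 6 of the 10, all at higher coordinates. The first, chr7:53128101-53128400, was higher in RA, 300 bp wide and 1.45 kb from the Grin2d CIH peak. It touched a peak of 1200 bp higher in CIH, chr7:53128401-53129600. Another 3 touched in a row, chr7:53151601-53152550 higher in CIH, chr7:53152551-53153100 higher in RA and chr7:53153101-53153450 higher in CIH. The sixth, chr7:53175851-53176700, was higher in CIH and 850 bp wide. At this locus, then, H3K9ac changed sign between touching peaks 3 times within 26.45 kb of the Grin2d CIH peak. Touching pairs with the same direction numbered 0 of 4157 in the H3K9ac list and 0 of 7 in the H3K27me3 list. A change of sign between touching peaks is therefore not particular to this locus. Whether these signs belong to Grin2d or Kdelr1 cannot be told apart from the lists.

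Cnr1 had 3 H3K9ac peaks within 50 kb. At lower coordinates, chr4:33793851-33794000 was higher in RA, 150 bp wide and 24.75 kb away, and it touched chr4:33793601-33793850, which was higher in CIH. At higher coordinates, chr4:33852101-33852300 was higher in RA and 32.95 kb away. Sv2c had 1, chr13:97009851-97010100, higher in RA, 250 bp wide and 34.15 kb from its RA peak. The 5 near these genes that were higher in RA had a median width of 250 bp and the 5 higher in CIH one of 850 bp. The whole H3K9ac list had the same order, with medians of 300 bp in RA and 600 bp in CIH.

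**Figure D2:**
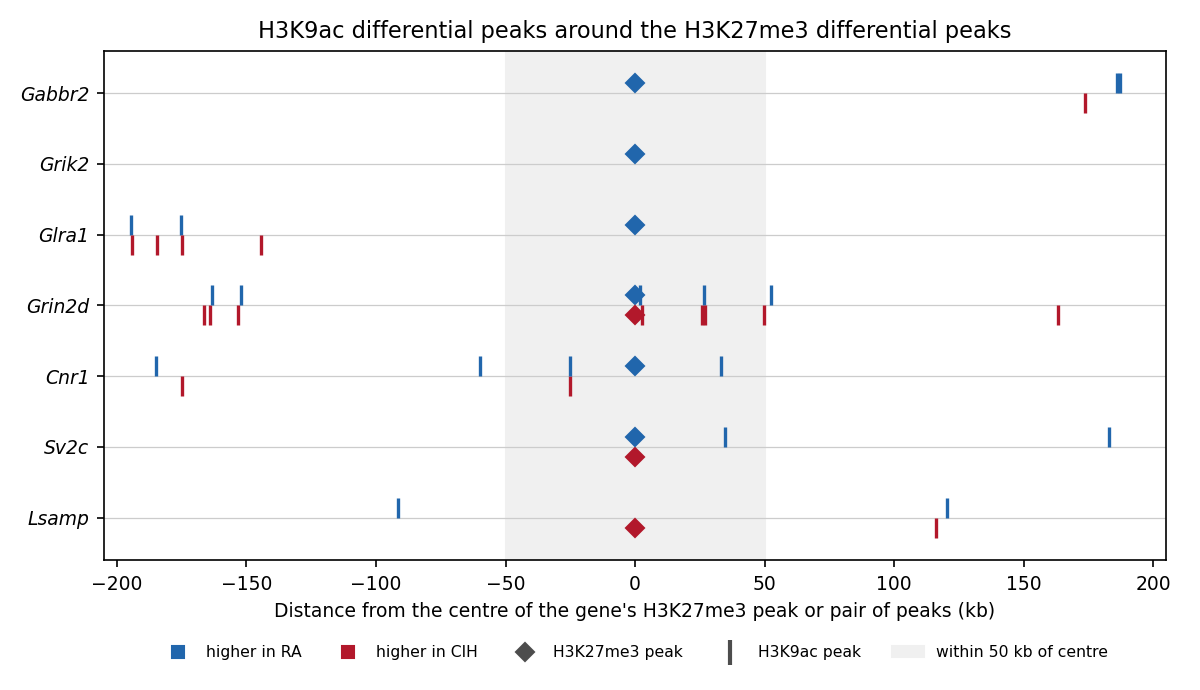
H3K9ac differential peaks (vertical ticks) up to 200 kb from the centre of the H3K27me3 differential peak or pair of peaks (diamonds) of each gene, with distance in kb along the x axis. Blue marks above each line are higher in RA and red marks below it higher in CIH, and of the 33 H3K9ac peaks drawn Grin2d has 13 and Grik2 has 0.

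The other genes had no H3K9ac peak within 50 kb. The nearest to Lsamp was higher in RA and 91.1 kb away, the nearest to Glra1 higher in CIH and 143.5 kb away, and the nearest to Gabbr2 higher in CIH and 173.25 kb away. The nearest to Grik2 was 722.25 kb away, higher in CIH, and all 145 other peaks of the H3K27me3 list had a nearer one. The median distance was 34.45 kb over the 9 peaks and 34.3 kb over the list. The 9 count Grin2d and Sv2c with 2 peaks each, and 34.45 kb is the distance of the Sv2c CIH peak. By gene, Gabbr2, Grik2, Glra1 and Lsamp lay farther than both medians, with 91.1 kb the least. Grin2d, Cnr1 and Sv2c did not, so the nearness of the medians depends on counting peaks and not genes. The 9 peaks reached the far end of the range and not the 0 kb of the peaks that share bases. For the 6 peaks higher in RA the median was 88.83 kb, against 55.2 kb for all those of the list, and for the 3 higher in CIH it was 34.45 kb, against 0 kb in the list.

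**Figure D3:**
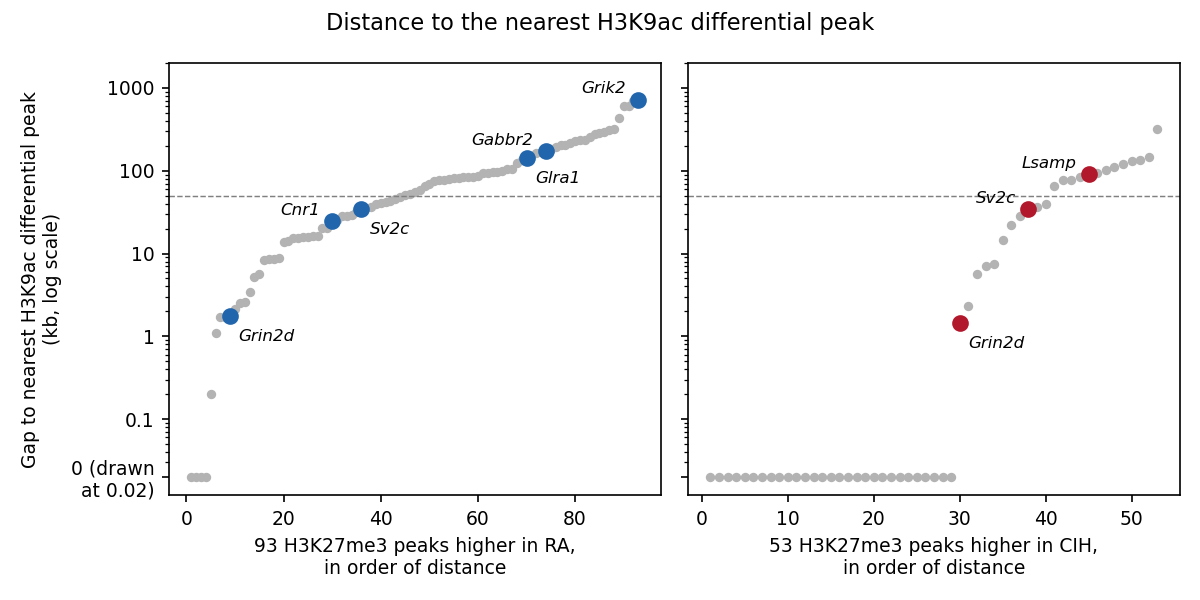
Gap in kb (log scale, with 0 drawn at the foot) from each of the 146 H3K27me3 differential peaks to the nearest H3K9ac differential peak, in order of distance, for the 93 higher in RA (left) and the 53 higher in CIH (right). Named points are the receptor and synaptic genes, grey points the other peaks, and the dashed line is at 50 kb. Grik2 is the last point at 722.25 kb, and none of the named points is at 0.

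In wider windows the genes kept apart. Within 1 Mb, Grin2d had 47 H3K9ac peaks and Grik2 had 2. Over the H3K27me3 list the range was 1 to 59 with a median of 17, and 142 peaks of the list had fewer than Grin2d while another 142 had more than Grik2. Gabbr2 had 29, Glra1 had 21, Sv2c had 19, Cnr1 had 18 and Lsamp had 13. The 21 near Glra1 all lay at lower coordinates than its peak, and none at higher. The directions were even at Gabbr2, with 14 higher in RA and 15 in CIH, and at Cnr1, with 9 and 9. More were higher in RA at Sv2c, with 15 and 4, and at Lsamp, with 8 and 5. More were higher in CIH at Glra1, with 7 and 14, and at Grin2d, with 20 and 27, and Grik2 had 1 and 1. Over the H3K9ac list 54.6% of the peaks were higher in RA. Touching peaks were counted singly, and how such splits vary over the H3K27me3 list is not given here.

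**Figure D4:**
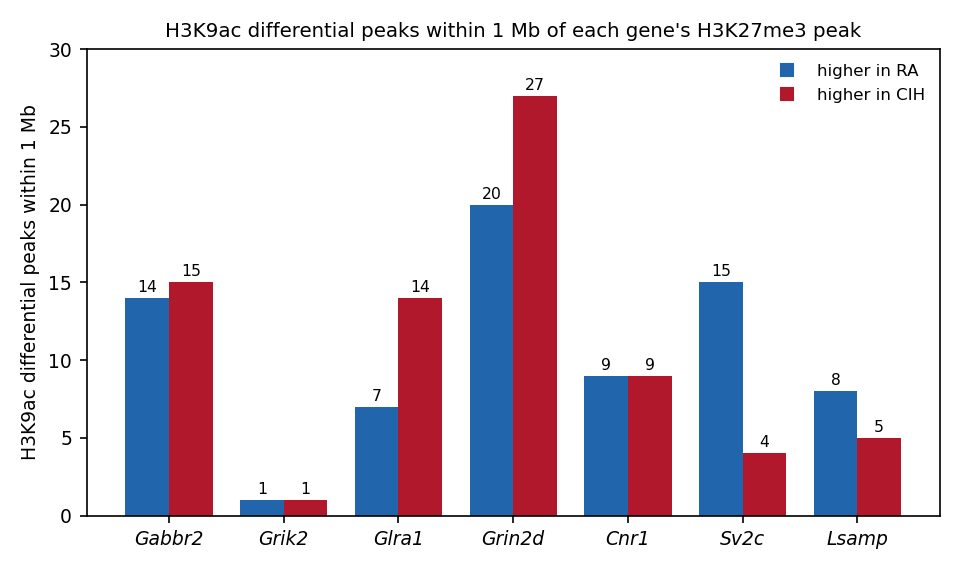
Number of H3K9ac differential peaks within 1 Mb of the H3K27me3 peak of each gene, with blue bars for peaks higher in RA and red bars for those higher in CIH, counted from 1 library per exposure. Grin2d has 20 and 27, Grik2 1 and 1, and Sv2c 15 and 4.

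The base composition of the peaks differed as widely. The Grin2d peak higher in RA had 68.4% GC and 14 CpG, and none of the 117 peaks with a sequence was richer in GC. Its partner, 50 bp away and higher in CIH, had 57.6% GC and 5 CpG. At the other end, the Grik2 peak had 31.8% GC, and 114 of the 117 peaks were richer. CpG observed over expected, the number of CpG relative to that set by the C and G content, was 0.48 and 0.24 in the Grin2d peaks, 0.38 in the Gabbr2 peak and 0.13 or less in the other 6. The CIH peaks of Sv2c and Lsamp held no CpG. The Gabbr2 peak had 51.6% GC over the 399 bases given, and that of Glra1 40.1% over 399. The median GC content was 44.3% over the 9 peaks and 43.9% over the 117, and the median CpG ratio 0.10 and 0.14. The 9 peaks thus spanned 31.8% to 68.4% GC, against 27.4% to 68.4% over the 117, and had no composition in common. Bases given as N occurred in none of the 9 and in 24 of the 117, or 20.5%.

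**Figure D5:**
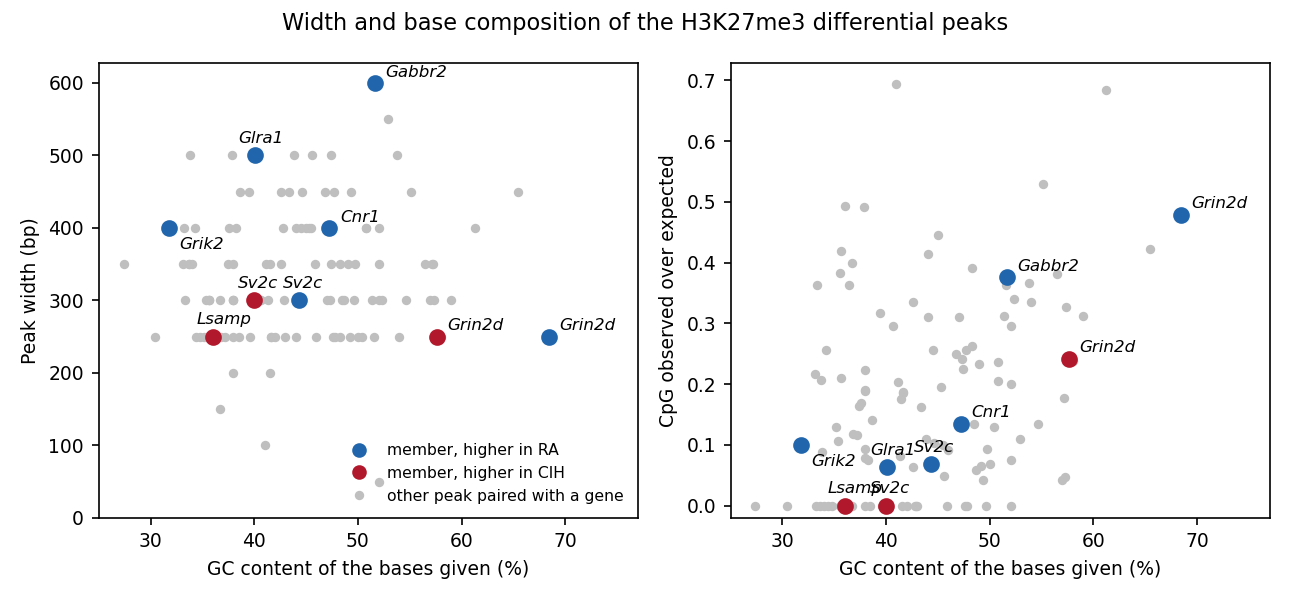
GC content in percent of the bases given for the 117 H3K27me3 differential peaks paired with a gene, against peak width in bp (left) and against CpG observed over expected (right). Large points are the 9 peaks of the receptor and synaptic genes, blue higher in RA and red higher in CIH. Grin2d lies at the right of both panels with 68.4% and 57.6% GC, and Grik2 near the left with 31.8%.

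No match with an annotated gene start was found over the bases given. None of the 9, and none of the 117, shared a run of 40 bases with any of 32851 RefSeq promoter sequences (GRCm38.p6), each reaching from 250 bases before to 50 bases after a start. Of the 483 H3K9ac peaks with a sequence, 94 matched the promoter of the gene they are paired with, so such matches could be found although the builds differ. Of the 7 genes, 6 had a promoter entry, and Glra1 is the one named only.

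A few short motifs were looked up in the peaks on both strands, as a description. The Grin2d CIH peak holds TTCAGCACC from its base 220, chr7:53126620-53126628, on the plus strand. These letters are the left part of RE1, the element bound by REST, a repressor of neuronal genes in other cells. This match was noticed by eye in the sequence before it was counted. No other of the 117 peaks held it (0.855% with this one), and 0.301% of promoters did in their first 250 bases. The right part, GGACAG, was in none of the 9 peaks, in 21.4% of the 117 and in 18.7% of promoters. The same Grin2d peak holds GAGGAAG, the core of the PU.1 motif of macrophages, found in 13.7% of the 117 and 10.6% of promoters. Lsamp holds the AP-1 motif TGACTCA, found in 7.69% and 4.46%. ACGTG, the core bound by hypoxia-inducible factors, is in the Gabbr2, Grik2 and Glra1 peaks, 3 of 9, and in 15.4% of the 117 and 16.6% of promoters. Within 9 peaks no motif was in more than 3, and a match of these letters is not evidence of binding.

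Lists of related genes were searched for other H3K27me3 differential peaks among the 117 paired with a gene. None of 8 metabotropic glutamate receptors had one. Gabbr2 was the 1 of 15 GABA receptor genes, Glra1 the 1 of 5 glycine receptor genes, Cnr1 the 1 of 2 cannabinoid receptor genes and Lsamp the 1 of 5 IgLON genes. Among synaptic vesicle genes 2 of 16 had one, Sv2c and Synpr, a synaptophysin relative. The Synpr peak, chr14:14461401-14461750, was higher in RA, shared with Sntn and 99.15 kb from the nearest H3K9ac peak. Few genes of the genome have a peak among these 117, so a family gene without one is no result about its family. The counts with a peak include the genes chosen for this report, which had one by the choice itself. The share over all genes is not given here, so these counts are no result about the families either.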

How the data were processed

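H3K9ac and H3K27me3 were profiled by ChIP-Seq in aorta macrophages of CIH and RA mice, with 1 library per mark and exposure. The submitters' processing notes name mm9, the peak caller MACS2 2.1.0, bedtools 2.23.0, Picard 1.121, SAMtools 1.2, BWA 0.7.12 and Trimmomatic 0.32. For each mark, the authors deposited the differential peaks with their positions, names, a score and a sign. That score was the same for all peaks (1000) and was not used. A plus sign is read as higher in RA and a minus sign as higher in CIH, since the direction of all 117 H3K27me3 and 483 H3K9ac peaks held of the supplementary lists matched. No input was sequenced, and with 1 pair of libraries a peak can differ through depth or background. This was not tested. The deposited lists give no depth, and the sequencing yields that the study states were not used here. Both lists as held here have fewer peaks in all than the study counts, so numbers of peaks, nearest distances and the absence of shared bases cover the peaks held. For H3K27me3 the balance differs too. The study counts more peaks in CIH than in RA, while the list held has 93 higher in RA and 53 in CIH. Why they differ was not determined here.

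Only gene pairings, directions and sequences were taken from the supplementary lists, and their counts per peak were not used. Sequences there stop near 400 bases. They were read as plus strand because 94 H3K9ac peaks matched the promoter of their gene in that orientation and 0 in the other. Positions, widths, gaps (edge to edge, main window 50 kb) and base composition were computed with Python 3.11.15 and matplotlib 3.10.9, and the distance functions were tested on simulated data. No statistical test was made. The genes named are the 7 chosen, those sharing a peak with them, and those of the related gene lists with a peak. The members and lists were chosen with earlier results of these data known. The count over the ionotropic glutamate receptor list and 1 sequence are not reported here. Columns of other samples numbered 0. Of 7 macrophage markers 1 (Ptprc) had an H3K27me3 differential peak and 0 had an H3K9ac peak in the part held, and of 4 neuron markers 0 had either, which cannot check the cell type, as the lists hold differences only. Other windows, widths, gaps and sequence lengths were tried as alternatives.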

Additional observations from a re-analysis of the deposited data

How the results depend on the processing

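No paired analysis was possible because each mark had 1 library per exposure. Of 19 alternatives, 11 stayed within 1.5 times the value reported or within the spread of the peaks, and 8 did not. With peaks that no other gene shares, 2 peaks were higher in RA in place of 6. With a window of 10 kb, 2 of the 9 peaks had an H3K9ac peak nearby in place of 5, and in the whole H3K27me3 list 53 of 146, or 36.3%, in place of 57.5%. The members then had 2 different H3K9ac peaks in place of 10, of which 1 was higher in RA in place of 5. With a window of 100 kb, 6 of the 9 peaks had one nearby, beside 76.0% of the list, and 8 of the 13 H3K9ac peaks nearby were higher in RA. With H3K9ac peaks of at least 300 bp only, 2 peaks had one nearby, and there were 6 of them. The share of the H3K27me3 list at this width is not given here, so this drop is no result about these genes. With touching peaks only, 2 peaks were in a pair of opposite direction in place of 4. These settings admit smaller or larger numbers of peaks. At 100 kb the balance of directions moved too, from 5 of 10 higher in RA to 8 of 13. Over the whole H3K9ac list 54.6% were higher in RA. What lies behind these changes was not tested. The sizes of the differences and their counting errors are not analysed here, since the deposited lists give positions and signs only and the counts of the supplementary lists were not used.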

Other observations

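Touching H3K9ac differential peaks were also ordered by direction. Of 4157 touching pairs in the H3K9ac list, 2504 had the CIH peak at lower coordinates and 1653 the RA peak, so 60.2% had the order of the Sv2c H3K27me3 pair. At Grin2d the touching H3K9ac peaks had both orders, RA before CIH in the first pair and CIH, RA, CIH in the row of 3. Near Cnr1 the touching pair had the CIH peak at lower coordinates.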
